A study of Mus musculus with 35 samples.

Results

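Regions gained at day 9 were stretches of the mouse genome that carried acetylation of histone H3 at lysine 27 (H3K27ac) at day 9 of reprogramming and in embryonic stem cells (ESC), but not in fibroblasts or at day 3. To find them, the peaks of 12 H3K27ac libraries on chromosomes 1 to 19 and X were merged wherever they shared at least 1 bp, which gave 179334 regions. A region was kept when no fibroblast or day 3 library had a peak in it and both day 9 and both ESC libraries did. This left 3296 regions, or 1.84% of all merged regions. The H3K27ac lists of those 4 stages chose the regions, so their H3K27ac values there are given as a description. The H3K27ac lists of day 6 and all lists of the transcription factor KLF4 played no part in the choice, except that day 6 peaks helped to draw the merged outlines.

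The series followed mouse embryonic fibroblasts (MEF) from a C57BL/6 x 129 background on the way to induced pluripotency, with chromatin immunoprecipitation and sequencing (ChIP-seq) for H3K27ac and KLF4. All fibroblasts carried OKSM, a doxycycline-inducible cassette for Pou5f1, Klf4, Sox2 and Myc, at Col1a1 and the activator M2rtTA at ROSA26. The MEF group was grown in fibroblast medium without doxycycline, and the day 3, 6 and 9 groups in ESC medium with doxycycline (1 µg/ml) and ascorbic acid (50 µg/ml). Day 3 cells were unsorted, whereas day 6 and day 9 cells were sorted as SSEA1+, so the later groups are a selected part of the culture. The ESC group was the V6.5 line in serum and LIF on irradiated feeder cells, a single established line. A further KLF4 group, called 2i here, was ESC with 1 µM of a MEK inhibitor and 3 µM of a GSK3 inhibitor. H3K27ac had 2 MEF, 3 day 3, 3 day 6, 2 day 9 and 2 ESC libraries, and KLF4 had 2 libraries each at day 3, day 6, day 9, ESC and 2i. In what follows a library is named by its batch label and number.

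H3K27ac marks active enhancers and promoters, the stretches of DNA that switch genes on, and its arrival at a silent stretch is a common readout of enhancer activation. KLF4 is a zinc finger factor that binds a GC-rich core, searched for here as GGGNGTGG. It is one of the induced reprogramming factors, and it is also part of the network that keeps ESC pluripotent and of the programme that makes cells epithelial. During reprogramming fibroblasts lose their mesenchymal character, turn epithelial and later switch on their own pluripotency genes.

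The labels of the stages were first checked on start sites of marker genes. Of the 8 ESC markers with a start site in the RefSeq table, 8 had an H3K27ac peak within 1 kb of the start in both ESC libraries, 7 in both day 9 libraries, 2 to 3 at day 3 and 1 to 2 in the MEF and day 6 libraries. The 7 fibroblast markers were all marked in both MEF libraries and 5 to 6 of them at day 3. At day 6 it was 2 to 3, in both day 9 libraries 3 and in the ESC libraries 2 to 3. All 6 epithelial markers were marked at day 9, 5 in ESC and 0 to 1 in MEF. The lists differed in length, from 17493 to 88347 peaks for H3K27ac and from 21129 to 34640 for KLF4, and the depth behind them is unknown. MEF and ESC H3K27ac came only from batch DG-3458 and day 9 only from batch EA-3702, so in comparisons of day 9 with ESC H3K27ac, stage and batch cannot be told apart. Day 3 had libraries of both batches, so each batch held libraries that had to lack a peak and libraries that had to have one.

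Among the gained regions were stretches at microRNA genes known from pluripotent and from epithelial cells. The RefSeq table held 1005 hairpins on the chromosomes used, and 55 of them (5.47%) lay within 10 kb of a gained region. The families shown here were chosen after their values were seen. They are printed because the capitals, which mark the seed (bases 2 to 8 of the mature microRNA), show which of them share a seed. The mature sequences are from RefSeq on GRCm38.p6 and run 5′ to 3′.
miR-302b-3p: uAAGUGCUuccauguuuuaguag
miR-302d-3p: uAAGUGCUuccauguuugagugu
miR-302c-3p: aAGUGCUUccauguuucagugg
miR-367-3p: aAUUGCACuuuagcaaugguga
miR-200b-3p: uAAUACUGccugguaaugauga
miR-200c-3p: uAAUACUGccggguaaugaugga
miR-429-3p: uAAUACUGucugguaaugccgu
miR-200a-3p: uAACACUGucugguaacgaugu
miR-141-3p: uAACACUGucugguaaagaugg

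The seed AAGUGCU was shared by miR-302b-3p and miR-302d-3p, and the seed AAUACUG by miR-200b-3p, miR-200c-3p and miR-429-3p. The seed AACACUG was shared by miR-200a-3p and miR-141-3p, which lie in different clusters. The hairpins Mir302b, Mir302c, Mir302a, Mir302d and Mir367, which make the microRNAs typical of pluripotent cells, all lay inside 1 gained region of 1231 bp, chr3:127544951-127546181. Its deposited fold enrichment was 3.24 and 4.13 in the day 9 libraries and 4.51 and 6.68 in the ESC libraries. No KLF4 library and no day 6 H3K27ac library had a peak in it. Mir141 and Mir200c, of the family that restrains the mesenchymal repressors Zeb1 and Zeb2, lay inside the gained region chr6:124717020-124719554. The fold there was 5.18 and 6.77 at day 9 and 7.36 and 7.47 in ESC, and KLF4 had a peak in both libraries of day 3, day 9, ESC and 2i and in 1 of 2 at day 6. The other cluster of the family, Mir200b, Mir200a and Mir429, lay 2.06, 2.83 and 3.82 kb from the gained region chr4:156057811-156060563. H3K27ac fold there was 14.2 and 15.6 at day 9 against 7.36 and 5.77 in ESC, and KLF4 peaks were in both libraries of day 6, day 9 and ESC and in none of day 3 or 2i. Mir182, Mir96 and Mir183 had 2 gained regions within 10 kb, of which the one nearer to Mir182, chr6:30166621-30168121, had KLF4 peaks in both ESC libraries and in none at day 3, 6 or 9. The other, chr6:30157666-30161134, had KLF4 peaks in both libraries of day 3, day 6, day 9 and ESC, with fold values of 14.9 and 15.3 at day 9 against 4.67 and 5.78 in ESC. So the pluripotency cluster had no KLF4 peak at any stage, whereas both clusters of the miR-200 family had KLF4 peaks at day 9 and in ESC.

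Promoters of 5 genes in gained regions show where KLF4 peaks and the KLF core fell. They are the 250 bases before a RefSeq start (GRCm38.p6), written 5′ to 3′ on the gene's strand, with matches to GGGNGTGG on either strand in capitals. Nr5a2 encodes a nuclear receptor that can replace Pou5f1 in reprogramming (chr1:136953631-136953880, minus strand), and Zfp42 encodes REX1, a marker of naive ESC (chr8:43307010-43307259, minus strand). Crb3 encodes an apical polarity protein (chr17:57061981-57062230, plus strand), Cldn3 a tight junction claudin (chr5:134985964-134986213, plus strand) and Epcam an epithelial adhesion molecule (chr17:87635729-87635978, plus strand).
Nr5a2 promoter: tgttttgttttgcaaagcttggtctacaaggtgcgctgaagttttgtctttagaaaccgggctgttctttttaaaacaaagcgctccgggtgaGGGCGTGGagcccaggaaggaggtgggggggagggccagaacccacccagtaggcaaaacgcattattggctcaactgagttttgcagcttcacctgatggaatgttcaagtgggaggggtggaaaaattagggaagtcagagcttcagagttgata
Zfp42 promoter: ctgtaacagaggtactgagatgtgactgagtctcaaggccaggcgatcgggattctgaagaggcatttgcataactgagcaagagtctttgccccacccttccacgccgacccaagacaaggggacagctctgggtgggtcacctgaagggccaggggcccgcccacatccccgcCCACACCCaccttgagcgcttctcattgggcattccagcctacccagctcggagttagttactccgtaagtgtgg
Crb3 promoter: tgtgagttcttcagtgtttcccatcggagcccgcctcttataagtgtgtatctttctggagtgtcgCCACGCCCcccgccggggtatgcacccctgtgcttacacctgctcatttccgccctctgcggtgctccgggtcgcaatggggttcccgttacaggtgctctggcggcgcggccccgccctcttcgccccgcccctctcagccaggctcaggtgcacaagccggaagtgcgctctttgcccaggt
Cldn3 promoter: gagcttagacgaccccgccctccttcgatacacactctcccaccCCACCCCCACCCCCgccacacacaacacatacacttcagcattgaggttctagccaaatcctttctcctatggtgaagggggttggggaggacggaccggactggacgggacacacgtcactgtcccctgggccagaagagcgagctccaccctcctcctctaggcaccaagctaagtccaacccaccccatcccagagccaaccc
Epcam promoter: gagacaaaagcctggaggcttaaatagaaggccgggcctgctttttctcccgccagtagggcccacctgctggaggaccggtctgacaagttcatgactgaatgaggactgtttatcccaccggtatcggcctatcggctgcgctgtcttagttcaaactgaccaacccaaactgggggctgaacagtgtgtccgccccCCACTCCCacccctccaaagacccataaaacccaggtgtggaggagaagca

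The match began at position -157 from the start in Nr5a2, -75 in Zfp42, -184 in Crb3 and -51 in Epcam, and Cldn3 had 2 matches at -206 and -200 that overlap each other. KLF4 peaks lay on the printed Nr5a2 and Crb3 windows in 0 of 2 libraries at day 3 and in 2 of 2 at day 6, day 9, ESC and 2i. On the Zfp42 and Cldn3 windows they lay in 2 of 2 libraries at every stage. On the printed Epcam window there was no KLF4 peak in any of the 10 libraries, although all 10 had one elsewhere in that gained region. A match to the core therefore went with early KLF4, late KLF4 and no KLF4 peak alike in these 5 promoters. Over all promoters (250 bases before to 50 after the start), 383 of 32619 (1.17%) were overlapped by a gained region, and 88 of the 383 (23.0%) held the core. The share was 22.6% of promoters under any H3K27ac region and 17.7% of all promoters, so it was near that of acetylated promoters as a whole, which also had the same GC content of 60.0%.

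The octamer ATGCAAAT, read by POU factors such as the product of Pou5f1, was in 2.35% of the gained promoters, 1.48% of promoters under any H3K27ac region and 1.75% of all promoters. The core TCAAGGTCA of the nuclear receptor ESRRB was in 0.261%, 0.319% and 0.426% of these sets, and TGANTCA, the core of the AP-1 factors active in fibroblasts, in 5.48%, 5.86% and 7.85% (both strands searched for each). The gained promoters were thus near other acetylated promoters for AP-1. The ESRRB core was in 1 of 383 gained promoters and in 7 of 707 promoters under ESC regions without day 9 peaks. In the 250-base windows, 82 of those overlapped by gained regions (22.3%) held the KLF core. KLF4 peaks lay on 32.9% and 35.4% of these 82 windows in the day 9 libraries, against 25.5% and 25.5% of the 286 windows without the core. Among all promoter windows the day 9 shares were 34.1% and 36.7% with the core and 15.1% and 16.9% without it, so at day 9 the gained windows with the core stood near all windows with it, and the gap between windows with and without it was wider over all. At day 3 the gained windows with the core were below all windows with it, with 18.3% and 14.6% against 40.7% and 26.3%, and at day 6 as well, with 28.0% and 22.0% against 43.1% and 30.0%. In 2i the gained windows had 43.9% and 50.0% with the core and 34.3% and 33.6% without it, and all windows 39.7% and 35.0% with it and 18.7% and 15.8% without it. These shares are a description, since 1 gene can have several promoters.

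The shares of genes next to a gained region were highest in the lists of epithelial and of pluripotency genes. Of 21631 protein-coding genes, 2195 (10.1%) had a gained region in the gene body or within 10 kb of it. Among 33 genes of epithelial junctions and keratins, 21 (63.6%) had one, and among 33 core and naive pluripotency factors 14 (42.4%) did. Of 17 genes of SSEA1 synthesis and surface markers 5 (29.4%) had one, of 19 genes of the formative and primed epiblast 5 (26.3%), of 20 genes of extra-embryonic lineages 5 (25%), of 15 genes of the senescence and p53 barrier 3 (20.0%) and of 25 Polycomb and chromatin regulators 4 (16%). The lists for LIF, STAT3 and BMP signalling (2 of 20, 10.0%), Nodal, FGF and WNT signalling (3 of 29, 10.3%) and DNA methylation (1 of 10, 10.0%) stood at the level of all genes. None of 30 fibroblast and mesenchymal genes had one, which the rule favours because fibroblast peaks disqualify a region. Longer genes are more likely to have a region, and genes with one had a median length of 34.5 kb against 17.3 kb for all genes. The epithelial and pluripotency lists had median lengths of 18.4 and 11.7 kb, and the other lists above the level of all genes ran from 8.45 kb (formative and primed) to 44.4 kb (SSEA1 and surface markers) and 55.3 kb (Polycomb). The lists were chosen with earlier results of these data known, so these shares carry no test.

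**Figure D1:**
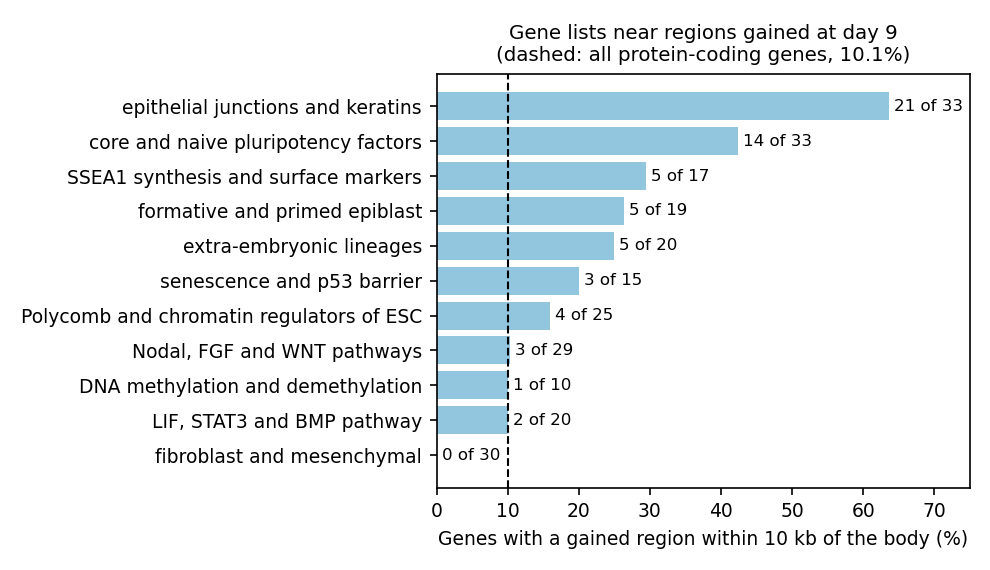
Percentage of the genes of each list with a gained H3K27ac region in the gene body or within 10 kb (bars, with the count of genes), and the share over all 21631 protein-coding genes (dashed line, 10.1%). The epithelial list reaches 63.6% and the pluripotency list 42.4%, and 3 signalling and methylation lists lie at the dashed line.

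The bars of the gene list plot give the same counts and show that the lists spread from 0 of 30 to 21 of 33 genes. Not all pluripotency genes were in this group. Nanog, Pou5f1 and Sox2, the core factors, and Tfcp2l1, Klf5 and Tbx3, naive factors, had no gained region. Nanog had 6 merged regions within 10 kb, of which 1 had peaks in an early library and in all day 9 and ESC libraries and 2 were in ESC without day 9. Tfcp2l1 had 33 regions, 13 of them in ESC without day 9, and Tbx3 had 10 regions, 7 of them in ESC without day 9. Among epithelial genes the keratins Krt8 and Krt18 had 2 regions each that were already marked early and stayed marked in all day 9 and ESC libraries. Cdh1, which encodes E-cadherin, had 15 regions, of which 1 was gained at day 9 and 4 had early and all late peaks.

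Tdh, Sall4, Nr5a2, Utf1 and Esrrb were among the genes of the pluripotency list whose regions had the best H3K27ac rank over the day 9 and ESC lists. The fold and p-value of each peak are the authors' values, and ranks are taken within a list. Tdh encodes the threonine dehydrogenase that ESC depend on, and its gained region over the gene body, chr14:63505693-63510202, had fold values of 12 and 19.3 at day 9 and 22.8 and 18.2 in ESC. The region in Sall4, a zinc finger factor of early embryos, spanned 8.74 kb (chr2:168759294-168768034) with fold values of 11.3 and 14.5 at day 9 and 31.4 and 33.3 in ESC. It already had H3K27ac peaks in all 3 day 6 libraries, with fold values of 2.50, 3.60 and 3.42, and KLF4 peaks in all 10 libraries. At the start of Nr5a2 (chr1:136950597-136956376) the fold was 10.0 and 11.7 at day 9 and 26.3 and 18.3 in ESC, and 2 further gained regions lay in the same gene. Neither day 3 library had a KLF4 peak in the Nr5a2 region, where KLF4 fold was 10.0 and 14.6 at day 6 and 19.9 and 23.4 at day 9. Later it was 11.1 and 4.62 for ESC and 8.23 and 7.61 for 2i.

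Utf1, a chromatin factor of pluripotent cells, had its start in the gained region chr7:139943667-139948077, with fold values of 7.58 and 12.5 at day 9 and 24.6 and 20.8 in ESC. KLF4 had peaks there in 0 of 2 libraries at day 3, 1 of 2 at day 6 and both at day 9, in ESC and in 2i. Esrrb, the orphan nuclear receptor of naive pluripotency, held the widest gained region of all, 19.3 kb inside its gene body (chr12:86466419-86485758). Its fold was 5.92 and 8.15 at day 9 and 30.4 and 29.0 in ESC, and KLF4 had peaks in 0, 1, 2, 2 and 2 libraries at day 3, day 6, day 9, ESC and 2i. In the Esrrb, Sall4 and Utf1 regions and in the better ranked Nr5a2 region both ESC libraries lay above both day 9 libraries, while in Tdh they overlapped. The fold of different lists is not on a common scale, so this order describes the lists.

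Klf2 and Zfp42 were picked from the same list after their values were seen, because of the gap between day 9 and ESC fold there. Klf2 encodes a KLF family member of the naive network. Its better ranked region (chr8:72327759-72334406), 8.70 kb from the start, had fold values of 2.38 and 2.80 at day 9 and 32.0 and 33.5 in ESC. Both day 9 libraries and both ESC libraries had KLF4 peaks at its higher-coordinate edge, with fold values of 9.08 and 9.65 at day 9 and 12.8 and 8.29 in ESC. No day 3 or day 6 library had a KLF4 peak in it, though a day 6 peak of DG-4040 lay just beyond that edge. The Zfp42 region (chr8:43302519-43311899) had H3K27ac fold values of 3.33 and 3.47 at day 9 and 20.1 and 18.6 in ESC, and KLF4 peaks in all 10 libraries, with fold values of 8.27 and 5.06 at day 3. Lin28a, an RNA-binding factor and also picked after seeing its values, went the other way with 7.95 and 9.02 at day 9 against 3.10 and 4.64 in ESC, and had no KLF4 peak in any library.

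**Figure D2:**
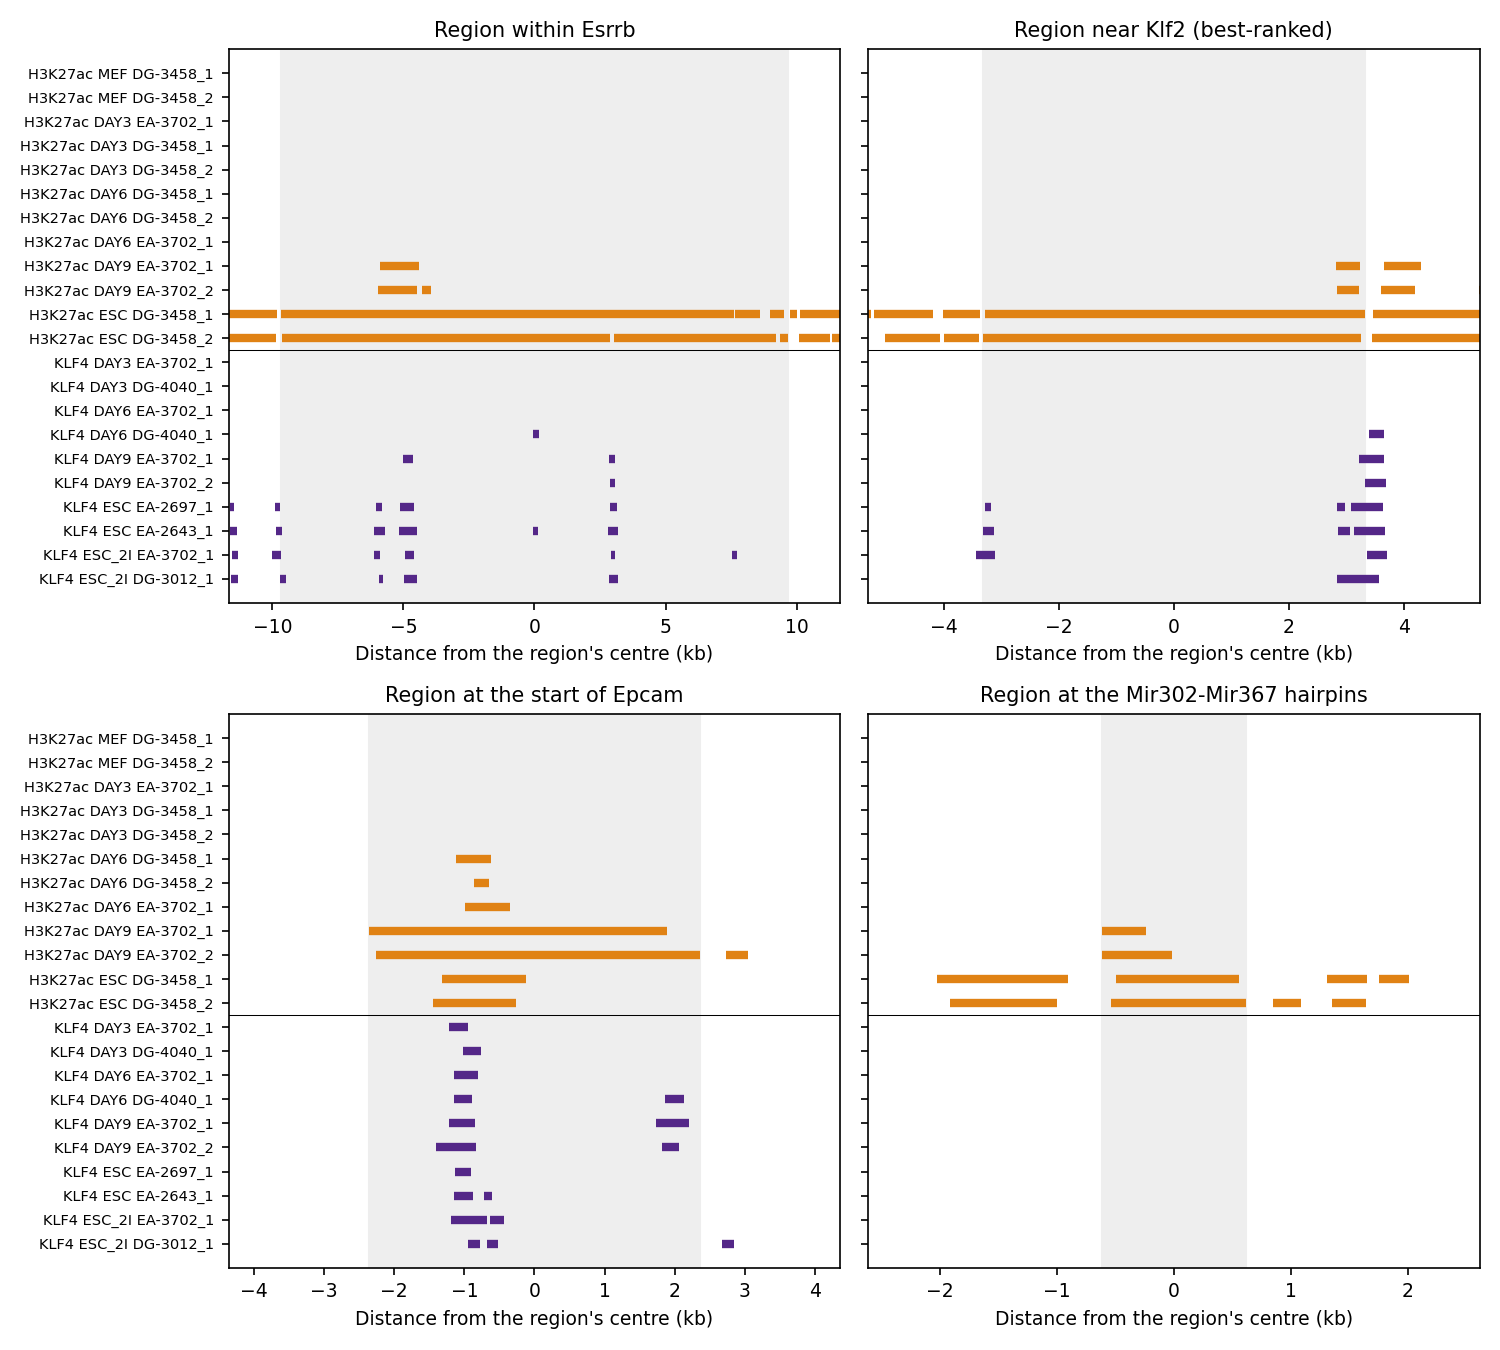
H3K27ac peaks (orange) and KLF4 peaks (purple) of each library around 4 gained regions (grey), with distance from the centre of the region in kb on the x axis and 1 library per line. The ESC peaks fill the Esrrb and Klf2 regions, the day 9 peaks of these regions are short, the day 9 peaks of the Epcam region are longer than its ESC peaks, and the Mir302 region has no KLF4 peak.

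The peak map shows how a region can meet the rule with peaks of very different extent. In the Esrrb region the strongest day 9 peaks ran from -5893 to -4411 bp and from -5985 to -4469 bp relative to the centre, whereas the main ESC peak of library DG-3458_1 ran from -9670 to 7598 bp. Of the 4 regions drawn, Epcam was the only one with day 6 H3K27ac peaks. Over all 3296 regions the day 9 peaks covered 55.0% of the summed length in each library, and the ESC peaks covered 75.8% and 72.3%.

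Epithelial genes had gained regions that were strong at day 9. The list was led by Spint1, Dsg2, Epcam, Ocln, Ovol2 and Cldn7. The region over the start of Spint1, an inhibitor of membrane serine proteases, spanned chr2:119235382-119242802 with fold values of 12.2 and 13.9 at day 9 and 15.2 and 14.2 in ESC, and had day 6 H3K27ac peaks in all 3 libraries. Dsg2 encodes a desmosomal cadherin, and its region had 17.0 and 13.0 at day 9 and 13.2 and 13.9 in ESC. The Epcam region (chr17:87635284-87640008) had 24.6 and 22.9 at day 9 and 5.70 and 10.0 in ESC, and was also listed in all 3 day 6 libraries with 5.23, 3.28 and 3.97. The Epcam region had KLF4 peaks in all 10 libraries, with fold values from 2.57 to 8.75.

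Ocln, which encodes the tight junction protein occludin, had its start in the region chr13:100550905-100553968, with 19.5 and 13.3 at day 9 and 8.22 and 6.16 in ESC. KLF4 was sparse there, with no peak at day 3 or day 6 and a peak in 1 of 2 libraries at day 9, in ESC and in 2i. Ovol2, a repressor of mesenchymal genes, had 3 gained regions, and the best ranked (chr2:144330323-144332185) had 7.40 and 6.07 at day 9 and 7.03 and 7.75 in ESC with KLF4 peaks in all 10 libraries. Cldn7, a claudin, had its start in the region chr11:69964936-69967214, with 14.1 and 12.3 at day 9 and 5.03 and 4.92 in ESC and again KLF4 in all 10. In fold, Epcam, Ocln and Cldn7 had both day 9 libraries above both ESC libraries, the groups overlapped in Dsg2 and Ovol2, and ESC lay above day 9 in Spint1. By rank among the gained regions, which does not compare fold across lists, all 6 of these regions were higher in both day 9 libraries. Spint1 stood at percentiles 96.4 and 97.6 at day 9 and 89.6 and 90.3 in ESC, so its order was turned.

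Further epithelial genes, picked after their values were seen, had the pattern of Epcam. Esrp1, a splicing factor of epithelial cells (chr4:11384488-11389454), had fold values of 16.6 and 16.8 at day 9 and 3.70 and 3.50 in ESC. Crb3 (chr17:57062040-57063088) had 12.2 and 12.7 against 3.26 and 3.21, and Grhl3, a grainyhead transcription factor, had 10.7 and 10.2 against 3.70 and 2.94. Cldn3 (chr5:134985860-134988378) had 12 and 10.1 against 3.18 and 6.68. KLF4 peaks were in all 10 libraries at Esrp1, Grhl3 and Cldn3, and in every library but those of day 3 at Crb3. The gained region in Cdh1 (chr8:106636366-106637797) was weak at both stages, with 3.70 and 4.34 at day 9 and 5.35 and 5.62 in ESC, and no KLF4 library had a peak in it.

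To compare stages without fold values of different lists, each region was ranked by its −log10 p among the same 3296 regions in each library. Of the 27 regions near epithelial genes, 16 ranked higher in both day 9 libraries than in both ESC libraries, 4 ranked higher in ESC and in 7 the ranks overlapped. Of the 21 regions near pluripotency genes, 3 ranked higher at day 9, 13 higher in ESC and 5 overlapped. The median rank of the epithelial regions was at percentile 74.5 at day 9 and 41.4 in ESC, and that of the pluripotency regions 75 and 83.8. Over all gained regions 1184 (35.9%) ranked higher at day 9, 1228 (37.3%) higher in ESC and 884 (26.8%) overlapped. Epcam stood at percentiles 99.9 and 99.7 at day 9 and 47.7 and 78.5 in ESC, and the better ranked Klf2 region at 12.1 and 23.3 at day 9 and 99.0 and 99.6 in ESC. These ranks use the lists that chose the regions and are a description.

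**Figure D3:**
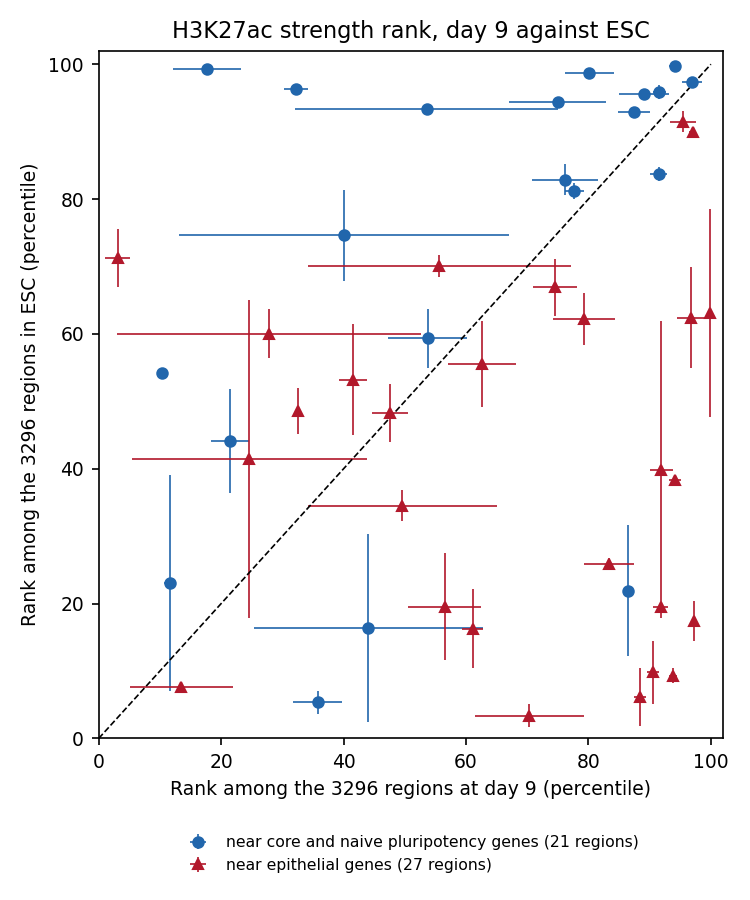
Rank of H3K27ac −log10 p among the 3296 gained regions (percentile), at day 9 on the x axis and in ESC on the y axis, for regions near pluripotency genes (blue circles, 21) and near epithelial genes (red triangles, 27). Points are means of 2 libraries, bars span the 2 libraries and the dashed line marks equal rank. Most pluripotency regions lie above the line and most epithelial regions below it.

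In the plot of ranks the epithelial regions at the lower right had strong day 9 and weak ESC peaks, and the pluripotency regions at the upper left the opposite. KLF4 peaks, which the choice of regions did not use, differed between these rank groups. In the regions with higher day 9 rank, 67.0% and 69.3% had a KLF4 peak in the day 9 libraries, 38.2% and 58.5% in ESC and 27.6% and 36.7% in 2i. In the regions with higher ESC rank the shares were 49.0% and 51.2% at day 9, 53.7% and 73.5% in ESC and 44.6% and 56.1% in 2i. Median widths of these rank groups were 1782 and 1975 bp. Each KLF4 library from day 9 had more peaks in the former group and each ESC and 2i library more in the latter, although no test was made because the groups come from the rule's own measure.

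Among surface markers, Fut9 had the best H3K27ac rank. Fut9 encodes a fucosyltransferase that makes the SSEA1 epitope used for the sort. Its better ranked region (chr4:25794817-25800579) had fold values of 22.0 and 24.8 at day 9 and 15.8 and 12.1 in ESC, and day 6 peaks in all 3 libraries with 6.08, 4.90 and 6.19. Alpl, the alkaline phosphatase of pluripotent cells, had 4 gained regions, and the one at its start (chr4:137794661-137796497) had 9.06 and 10.1 at day 9 and 14.4 and 14.7 in ESC. Kit, a receptor tyrosine kinase, had 5.92 and 6.25 at day 9 and 19.6 and 20.9 in ESC over its start (chr5:75574085-75578429). Podxl, a sialomucin of the cell surface, had 2.82 and 3.65 at day 9 and 3.75 and 4.84 in ESC, with KLF4 peaks only in the libraries of day 9, ESC and 2i, all 6 of them. Because day 6 and day 9 cells were sorted on SSEA1, the part of that sort in the Fut9 values was not tested.

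The formative and extra-embryonic lists, each with 5 genes near a gained region, came after the surface markers in their share. In the formative and primed list, Pou3f1, a POU factor of the epiblast, had 7.40 and 9.72 at day 9 and 6.69 and 7.75 in ESC. Grhl2, a grainyhead factor that is also on the epithelial list, had 5.29 and 6.77 at day 9 and 6.39 and 6.89 in ESC. Foxd3, a forkhead factor, had a 7.20 kb region 9.91 kb from its start with 3.33 and 3.82 at day 9 and 26.9 and 25.8 in ESC. In the extra-embryonic list, Tfap2c, an AP-2 factor of germ cells and trophoblast, had 2 gained regions. The better ranked had 8.14 and 8.67 at day 9 and 11 and 6.71 in ESC, with day 6 peaks in all 3 libraries. Tfap2a, another AP-2 factor, had 2 gained regions that differed, the better ranked with 3.14 and 3.65 at day 9 and 10.6 and 11.3 in ESC and the other with 3.27 and 3.94 at day 9 and 2.83 and 2.5 in ESC. Gata2, a GATA factor of trophoblast and blood, had 4.32 and 6.58 at day 9 and 3.37 and 5.49 in ESC, with KLF4 peaks in all 10 libraries. Cdx2 and Eomes, factors of the trophoblast, had 1 gained region each. Fold values were 3.14 and 4.69 at day 9 and 5.03 and 5.2 in ESC at Cdx2, and 2.2 and 3.47 at day 9 and 4.63 and 8.6 in ESC at Eomes.

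In the senescence and p53 list, a region within 10 kb of Rb1, the retinoblastoma gene (chr14:73186370-73189336), had 17.2 and 17.5 at day 9 and 12 and 9.59 in ESC. Its nearest gene was Rcbtb2, 2.31 kb away. Ccnd3, which encodes cyclin D3, held a 10.6 kb region with 4.81 and 4.69 at day 9 and 34.2 and 23.8 in ESC. In Trp53, which encodes p53, the fold was 3.11 and 3.60 at day 9 and 5.85 and 7.43 in ESC, with no KLF4 peak in any library. In the Polycomb list, Jarid2, a cofactor of PRC2, had 2 gained regions upstream of its start with KLF4 peaks in all 10 libraries. The better ranked (chr13:44722353-44725492) had 7.03 and 5.38 at day 9 and 15.5 and 18 in ESC. Kat6b, a histone acetyltransferase gene, had 4.44 and 3.13 at day 9 and 5.51 and 7.13 in ESC. The region within 10 kb of Cbx7, a gene of the PRC1 complex, lay in Apobec3 and had 2.4 and 2.23 at day 9 and 31.9 and 22.8 in ESC. Smarca4, the BRG1 remodeller gene, had 3.33 and 4.51 at day 9 and 4.70 and 4.16 in ESC, with no KLF4 peak in any library. In the signalling and methylation lists, Lif, Id4, Tcf7l1, Fgfr1, Tcf7l2 and Dnmt1 were the genes with gained regions. Their highest fold in any library was 10.6, in the region 9.83 kb from the start of Lif, the cytokine that keeps mouse ESC naive. The gene nearest to that region was Osm, at 5.40 kb.

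The gained regions with the best H3K27ac ranks of all were mostly away from genes of the lists. The first (chr1:88605192-88611580) lay 79.3 kb from Glrp1, the nearest protein-coding gene, with fold values of 21.0 and 19.4 at day 9 and 22.6 and 18.8 in ESC. Its KLF4 peaks were in 0, 1 and 2 of 2 libraries on days 3, 6 and 9, in both ESC libraries and in neither 2i library. The second lay 121 kb from Med13l, a subunit gene of the Mediator kinase module, with 14.8 and 15.3 at day 9 and 24.5 and 22.0 in ESC. It had day 6 H3K27ac peaks in all 3 libraries and KLF4 peaks in all 10. The others among the first 8 were in or near Eif4e2, Pcmtd1, Slc35f2, Tle4, Fam169a and Gm15319. KLF4 had a peak in both day 9 libraries in 7 of these 8 regions, all but Fam169a, and in both ESC libraries in all 8. Over all gained regions these shares were 48.1% and 40.3%, and over all merged regions 9.18% and 7.26%. Beside Esrrb the widest regions lay 17.8 kb from Smarcad1, a chromatin remodeller gene, with 14.3 kb, and in Eif4e2, a cap-binding protein gene, with 13.0 kb.

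Several gained regions could lie in or within 10 kb of 1 gene. Rnf220, which encodes a ubiquitin ligase, had 6, and Btbd11, Pitpnc1, Rbm20 and Rps6ka2 had 5 each, in genes of 206 to 275 kb. One of the Rps6ka2 regions lay 3.41 kb outside the gene. The shorter genes Rsph1, Upk1a and Zbtb32 also had 5 each. Within Rnf220 the regions differed. The one at a start (chr4:117366387-117377912) had 4.99 and 6.25 at day 9 and 32.8 and 29.1 in ESC with KLF4 peaks in both libraries of day 6, day 9, ESC and 2i. None of the other 5 had a KLF4 peak at day 3, 6 or 9. Along chromosomes the median gap between neighbouring gained regions was 285 kb, and 418 of 3276 gaps (12.8%) were under 10 kb.

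The gained regions were wider than merged regions as a whole. The rule favours this, because each joins peaks of both day 9 and both ESC libraries, whereas a merged region can be a single peak. Their median width was 1650 bp, with quartiles of 1044 and 2512 bp and a range from 348 to 19340 bp, against 542 bp for all merged regions. Of the 3203 outside chromosome 18, 220 (6.87%) held a start of a protein-coding gene, close to the 6.02% of all merged regions. A further 649 (20.3%) lay within 10 kb of a start, 1073 (33.5%) at 10 to 50 kb and 1261 (39.4%) farther away. For all merged regions these shares were 17.4%, 32.4% and 44.1%, so the gained regions were near all merged regions in distance. The reference sets defined below held a start less often. It was 283 of 22606 ESC regions without day 9 peaks and 86 of 4785 day 9 regions without ESC peaks. Their shares over 50 kb from a start, 40.1% and 44.9%, differed less from the 39.4% of gained regions. These sets were also narrower, with median widths of 676 and 772 bp, and the part of width was not tested. By chromosome the gained regions made up 1.5% to 2.3% of merged regions.

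Regions that narrowly met the rule had at least 1 weak peak. The weakest of the 4 required peaks had a −log10 p of 2.00 to 2.06 in the 10 lowest regions and a median of 5.06 over all. A further 3368 regions failed the rule through a single library. Of these, 913 and 726 lacked 1 of the day 9 peaks and 351 and 480 lacked 1 of the ESC peaks. In the other near misses 1 fibroblast or day 3 library had a peak, most often day 3 library EA-3702_1 with 402 regions, and the median −log10 p of those peaks was 3.61 to 4.79.

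KLF4 peaks became more frequent in the gained regions from day 3 to day 9. At day 3 KLF4 peaks were in 28.8% (EA-3702) and 22.9% (DG-4040) of the 3296 regions, at day 6 in 33.0% (EA-3702) and 45.6% (DG-4040), and at day 9 in 53.7% and 56.1% (both EA-3702). In ESC the shares were 42.2% (EA-2697) and 61.7% (EA-2643), and in 2i 34.3% (EA-3702) and 43.0% (DG-3012). Day 3, day 6 and day 9 did not overlap, while ESC spanned the day 9 values. The slope over the 6 libraries of days 3, 6 and 9 was 4.84 points a day. An exact two-sided test that permuted the day labels in 90 ways gave p = 0.0222, the lowest value possible with 2 libraries a day, and an adjusted p (Benjamini-Hochberg over 6 tests) of 0.0333. The rule asked for no H3K27ac peak at day 3 and for peaks at day 9, and its part in the rise was not tested. Day 9 regions without ESC peaks, chosen with the same day 3 and day 9 conditions, rose too, with means of 21.5%, 27.6% and 43.3%. Day 3 cells were unsorted and later cells sorted, so between them day and sort cannot be told apart. The day 3 lists, with 34404 and 29493 peaks, were longer than the day 9 lists, with 24004 and 26003 peaks. With the same number of top peaks from each list, which left 954 gained regions, the slope was 5.62 at the same exact permutation p of 0.0222. Within batch EA-3702 the shares were 28.8%, 33.0%, 53.7% and 56.1% over the days, and within DG-4040, which has no day 9 library, 22.9% and 45.6%; permuting labels within batches gave an exact p of 0.0417. Leaving out KLF4 library DG-4040_1 of day 3, either day 6 library or EA-3702_2 of day 9 gave slopes of 4.47, 4.84, 4.84 and 4.61 at an exact p of 0.0667 each.

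Across day 3, day 6, day 9 and ESC together the means were 25.8% ± 4.16, 39.3% ± 8.90, 54.9% ± 1.69 and 51.9% ± 13.7 (SD, n = 2 each), and 38.6% ± 6.16 in 2i. The between-stage F of 4.90 did not pass the threshold, with p = 0.124 (adjusted 0.124) in an exact test that permuted the 4 stages in 2520 ways. The ESC library with the higher share, EA-2643, also had the longer list, 34640 peaks against 21129 in EA-2697. Leaving out 1 of these 8 KLF4 libraries at a time gave F values from 2.27 to 12.5. The highest came without EA-2697, which leaves 1 ESC library. When all lists were cut to equal length by strength, the F was 117 and passed (exact permutation test, p = 0.0286). The labels do not say whether replicates came from separate cultures, so these p-values measure the spread between these libraries, which may be technical.

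**Figure D4:**
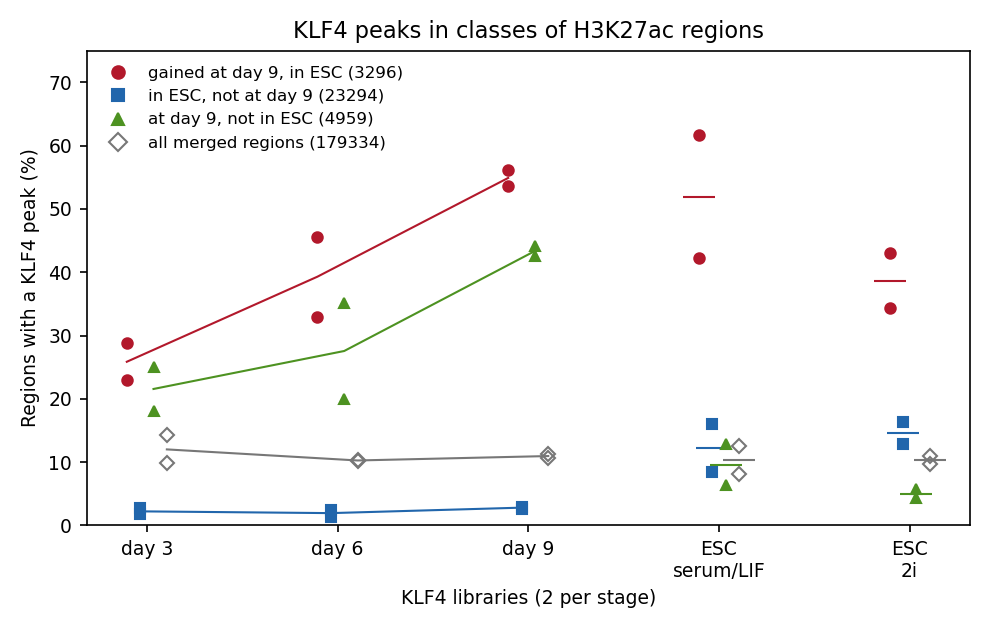
Percentage of regions with a KLF4 peak in each KLF4 library (points) and the mean of the 2 libraries of a stage (lines) for the 3296 gained regions and 3 reference sets. The gained regions rise from 22.9% and 28.8% at day 3 to 53.7% and 56.1% at day 9, and the ESC regions without day 9 peaks stay at or below 2.79% on average until day 9.

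The plot by stage sets the gained regions beside sets of the same H3K27ac lists. ESC regions without day 9 peaks had no peak in MEF, day 3 or day 9 and a peak in both ESC libraries, and there were 23294 of them. Day 9 regions without ESC peaks had none in MEF, day 3 or ESC and a peak in both day 9 libraries, and there were 4959. In the former the mean KLF4 share was 2.21%, 1.93% and 2.79% at day 3, 6 and 9, 12.2% in ESC and 14.6% in 2i. In the latter it was 21.5%, 27.6% and 43.3% at day 3, 6 and 9, 9.62% in ESC and 5.01% in 2i. Over all merged regions it was 12%, 10.2%, 11%, 10.3% and 10.3%, but these are narrower. Per Mb of region the gained regions held 119 and 97.6 KLF4 peak midpoints in the day 3 libraries, below the 137 and 103 of all merged regions. At day 9 they held 235 and 245 per Mb against 97.3 and 104, a ratio of 2.41 and 2.35, where the shares of regions with a peak gave 5.06 and 4.97. The gained regions therefore had KLF4 peaks both while the cells were reprogrammed and in ESC, whereas ESC regions without day 9 peaks had them mainly in ESC and 2i and day 9 regions without ESC peaks mainly on the reprogramming days.

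The share in gained regions exceeded that in ESC regions without day 9 peaks by 35.4 ± 12 points (SD over 10 libraries), in 10 of 10 libraries (two-sided exact permutation test over 1024 sign flips, p = 0.00195, adjusted p = 0.00586). This p is the smallest the design allows. The difference between these sets grew by 4.74 points per day (exact permutation test, p = 0.0222, adjusted p = 0.0333), though without either day 6 library the exact p was 0.0667 at the same slope of 4.74. Gained regions were wider (medians 1650 and 676 bp) and stronger in the ESC lists (median percentiles 69.4 and 67.3 against 53.6 and 51.1). In regions of 1000 to 2000 bp, a window set after seeing the data, day 9 KLF4 peaks were in 48.5% and 49.6% of 1298 gained regions and in 4.43% and 4.37% of 4694 ESC regions without day 9 peaks. At percentiles 50 to 75 of the ESC lists the day 9 shares were 49.5% and 51.9% of 1078 gained regions and 3.19% and 3.47% of 7125 others.

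Against day 9 regions without ESC peaks the difference was 20.7 ± 15.8 points over 10 libraries, higher in 10 of 10 (exact permutation test, p = 0.00195, adjusted p = 0.00586). These sets differ by rule in ESC H3K27ac, and the part of that was not tested. The KLF4 difference was smaller at matched width. Between regions of 1000 to 2000 bp the mean difference was 10.8 points (exact permutation test, p = 0.117), and as KLF4 peak midpoints per Mb it was 46.3 (exact permutation test, p = 0.229). In that width window the day 9 shares were 48.5% and 49.6% of gained regions and 53.7% and 56.7% of the 1398 day 9 regions without ESC peaks, so the order was turned at day 9. In the ESC libraries the window kept a gap, 35.9% and 56.1% in gained regions against 8.44% and 16.4%. The difference in slope over days, 1.21 points per day, did not pass the threshold (exact permutation test, p = 0.0889, adjusted p = 0.107). It was -0.649 in the width window and -4.63 per Mb. With the same number of top peaks from each list it was -0.361. It passed, at an exact permutation p of 0.0222 each, with a deposited q of at most 0.01 (1.63), with an overlap of 50% of the shorter interval (1.48) and without day 9 H3K27ac library EA-3702_1 (1.99) or EA-3702_2 (2.07). The call and the direction of this difference thus depended on these choices.

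Requiring a KLF4 peak in both libraries of a stage left 562, 942 and 1586 gained regions for days 3, 6 and 9, then 1327 for ESC and 912 for 2i. In percent of all merged regions, the same requirement was met by 8.43%, 7.41%, 9.18%, 7.26% and 7.02%. Over the 4 stages without 2i, 323 gained regions (9.80%) had KLF4 in both libraries throughout, against 3.14% of all merged regions. No KLF4 peak in any of those 8 libraries was found in 698 gained regions (21.2%), against 76.6% of all merged regions, 80.1% of ESC regions without day 9 peaks and 39.3% of day 9 regions without ESC peaks. KLF4 in both day 9 libraries and neither day 3 library was found in 740 (22.5%), against 1.90% of all merged regions. Of the gained regions 376 (11.4%) had KLF4 in both ESC libraries as well, against 0.551% of all merged regions. In 129 gained regions (3.91%) KLF4 was listed in both ESC libraries but in none of day 3, 6 or 9, a share close to the 4.54% of ESC regions without day 9 peaks and above the 1.05% of all merged regions. Because 1768 regions (53.6%) had a peak in 1 of 2 libraries at some stage, the counts of these classes depend on how many libraries are required.

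Regions with KLF4 from after day 3 onward were led in KLF4 rank by ones in Tnrc18, beside Gapvd1 (2 adjacent regions), Kcnj1 and Gfi1b, and at the start of Nr5a2. In Tnrc18 (chr5:142781971-142784078) KLF4 fold was 8.82 and 8.83 at day 6 and 22.5 and 24.5 at day 9, then 14.7 and 9.30 for ESC and 20.1 and 6.34 for 2i. Its H3K27ac fold was 4.25 and 3.65 at day 9 and 7.05 and 7.75 in ESC, with no day 6 peak. Beside Gfi1b, a zinc finger repressor of blood cells, KLF4 fold was 14.0 and 17.0 at day 9 while H3K27ac fold was 3.92 and 3.25. High KLF4 rank thus came with H3K27ac peaks from weak to strong.

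Regions with KLF4 at every stage were led by ones at Prph, Pck2, Upk1a and Tesk2. Prph encodes the intermediate filament peripherin, and its region (chr15:99055226-99056563) had KLF4 fold values of 17.4 and 24.5 at day 3, 19.9 and 19.1 at day 6 and 29.6 and 28.1 at day 9. The ESC libraries had 30.4 and 16.7 there and the 2i libraries 32.7 and 30.0. Its H3K27ac fold was 6.59 and 8.34 at day 9 and 5.03 and 3.22 in ESC, with peaks in 2 of 3 day 6 libraries and none earlier. In Tesk2, which encodes a kinase (chr4:116725666-116727469), KLF4 fold was 18.1 and 8.21 at day 3, yet H3K27ac fold was 2.58 and 2.24 at day 9 and 18.5 and 14.8 in ESC. The Prph and Tesk2 regions were thus alike in having KLF4 at every stage, for which they were chosen, and differed in which of day 9 and ESC had the higher H3K27ac fold.

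Gained regions at start sites and distal ones differed in the stages of their KLF4 peaks. In the 220 regions that held a start, KLF4 peaks were in 42.7% and 45.5% at day 9, 46.8% and 64.1% in ESC and 57.3% and 63.6% in 2i. In the 2334 regions over 10 kb from a start they were in 56.2% and 58.0% at day 9, 42.3% and 62.0% in ESC and 32.3% and 41.2% in 2i. Distal gained regions were thus lower in both 2i libraries than in both day 9 libraries, and those at starts were higher. All merged regions holding a start had 48.0% and 52.4% at day 9 and 58.0% and 57.2% in 2i. The shares also differed by width: in the narrowest gained regions (348 to 1042 bp) 33.3% and 36.9% had KLF4 at day 9, and in the widest (2513 to 19340 bp) 73.2% and 76.1%.

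At day 6 most gained regions had no H3K27ac peak. In the 2 day 6 lists of DG-3458 the peak names carry each other's library number, so which of the pair is DG-3458_1 is in doubt; the numbers used here follow the sample titles. Peaks were in 6.13% and 4.19% (DG-3458) and 15.1% (EA-3702) of the 3296 regions, against 7.79%, 6.59% and 9.45% of all merged regions. The gained regions were thus below all merged regions in both DG-3458 libraries and above them in EA-3702, and the means of 8.49% and 7.94% were close. In all, 629 (19.1%) had a peak in at least 1 of the 3 libraries, against 11% of all merged regions, and 46 (1.40%) in all 3, against 5.61%. Among these 46 were the regions of Epcam, Sall4, Spint1, Fut9, Tfap2c, Fam169a and the one near Med13l. ESC regions without day 9 peaks had 0.0687%, 0.0129% and 0.0687%, and day 9 regions without ESC peaks 2.90%, 1.65% and 7.97%. The difference from the former was 8.43 ± 5.82 points (SD, n = 3) and positive in 3 of 3 libraries, with an exact permutation p of 0.250, the smallest that 3 libraries allow. It was 33.9 with the same number of top peaks from each list and 5.12 to 10.6 when 1 library was left out. Library EA-3702 shares its batch with the day 9 libraries that chose the regions and had the highest share; the part of the batch was not tested.

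Day 6 H3K27ac peaks were more frequent where KLF4 was listed at day 6. With no day 6 KLF4 peak (1649 regions) the shares were 2.85%, 1.82% and 5.22% in DG-3458_1, DG-3458_2 and EA-3702_1. With a KLF4 peak in 1 of 2 libraries (705 regions) they were 5.25%, 3.97% and 14.2%, and with both (942 regions) 12.5%, 8.49% and 33.2%. Regions with KLF4 were wider, with medians of 1352, 1817 and 2109 bp in the order given. Within the window of 1000 to 2000 bp the shares were 2.43%, 2.15% and 4.86% without KLF4 (699 regions) and 7.62%, 4.44% and 21.3% with both (315 regions). The order held in each of the 3 libraries in both comparisons, and it is given across regions, with no test. It was not particular to day 6 KLF4. With no day 3 KLF4 peak the shares were 3.67%, 2.60% and 8.77%, and with both 11.9%, 7.83% and 27.9%. By day 9 KLF4 they were 2.77%, 1.90% and 5.53% with none and 9.08%, 6.43% and 24.3% with both.

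**Figure D5:**
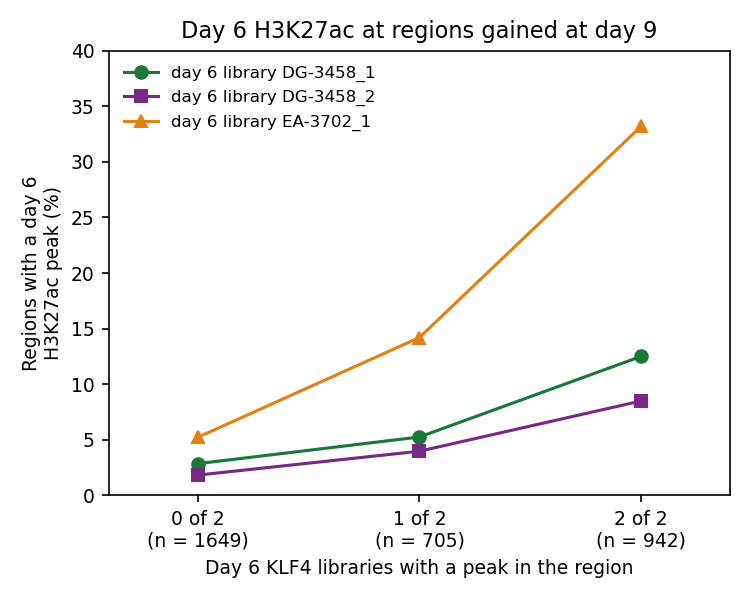
Percentage of gained regions with a day 6 H3K27ac peak in each of the 3 day 6 libraries (lines), by the number of day 6 KLF4 libraries with a peak in the region (x axis). Each library rises from left to right, and EA-3702_1 reaches 33.2% where both KLF4 libraries have a peak.

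The plot of day 6 peaks shows a rise in each library, of different size and level, lowest in DG-3458_2 and highest in EA-3702_1. The rank groups differed at day 6 as well. Of the gained regions with higher rank at day 9 than in ESC, 11.3%, 9.12% and 30.2% had a day 6 H3K27ac peak, and of those with higher rank in ESC 2.93%, 1.47% and 6.43%. Of the 27 epithelial regions 5 had a day 6 peak in at least 1 library and 14 had KLF4 in both day 6 libraries. Of the 21 pluripotency regions the counts were 6 and 9. Over all gained regions these shares were 19.1% and 28.6%, and over all merged regions 11.0% and 7.41%.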

How the data were processed

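H3K27ac (12 libraries) and KLF4 (10 libraries) ChIP-seq was done, per the labels' protocols, on formaldehyde-fixed and sonicated chromatin that was sequenced from 1 end. The submitters' processing notes name cutadapt 1.8.1, Bowtie2 2.2.5, deepTools 2.3.6, MACS2 2.1.1 and the build mm10. Their settings and the control used for each list are not given in the sources used here. The authors deposited 1 list of peaks per library, with 10 columns holding among others a score, a fold enrichment (ratio over control), and −log10 of the p-value and of the q-value. These values are the authors' and were used inside a single list each, for description, ranks and filters; the score was not used in the text. The deposited −log10 p starts at 2.00 to 2.09 in the H3K27ac lists and 2.00 to 2.04 in the KLF4 lists, which thus end near p 0.01. The files hold no read counts, so depth is unknown, no counting interval can be given, and signal may be present where no peak was listed. The 13 input libraries were not used here.

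Peaks were merged at an overlap of 1 bp. A region had a KLF4 or day 6 peak when it shared at least 1 bp with one. Its fold and −log10 p in a library were those of its strongest peak there. Per library, the share of regions with a peak was the value compared, by two-sided exact permutation tests over libraries (labels for slopes and F, signs for paired differences), with Benjamini-Hochberg adjustment over 6 tests and a threshold of 0.05. Genes, starts, promoters and microRNAs are from RefSeq tables on GRCm38.p6, the assembly that mm10 stands for. Of the 3296 regions, 93 lie on chromosome 18, whose start sites and promoters were not used here. Of the listed genes, 15 of 16 in the senescence list and all in the others were found in the gene table.

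The regions, gene lists and tests were chosen with earlier results of these data known. The text names the 8 regions with the best mean H3K27ac rank, up to 6 genes per list in order of rank (1 gene of the pluripotency list and 2 of the formative list are not reported here), the 5 genes under 500 kb with most regions, the 6 and 4 regions with the best KLF4 rank among those with KLF4 in both day 9 and ESC libraries and none at day 3, or at every stage, and the 3 widest regions. Others are said to be picked after their values were seen. Alternatives were a deposited q of at most 0.01, the same number of top peaks per list, an overlap of 50% of the shorter interval, midpoints per Mb, merging without day 6, permutation within batches and leaving out each library. Width and percentile windows, distance from starts and leaving out 2i were added after seeing the data. Scripts in Python 3.11.15 with numpy 2.4.6, pandas 2.3.3 and matplotlib 3.10.9 were tested on simulated data.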

Additional observations from a re-analysis of the deposited data

How the results depend on the processing

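Of 204 alternative values, 185 were counted as unchanged. For the 6 adjusted tests this meant the same direction and the same side of the threshold. The number of gained regions (15 of the 185) and the day 6 difference (another 15) were judged by a limited change in size instead. Some values could not change, such as the slope over days without an ESC KLF4 library. Keeping the same number of top peaks per list (17493 for H3K27ac, 21129 for KLF4) left 954 gained regions, raised the day 6 H3K27ac difference from ESC regions without day 9 peaks to 33.9 points, raised the F across stages to 117 (exact permutation test, p = 0.0286) and turned the difference in slope from day 9 regions without ESC peaks to -0.361. That difference in slope was also turned as midpoints per Mb, to -4.63, and in regions of 1000 to 2000 bp, to -0.649. It passed the threshold with a q of at most 0.01 (1.63) and with an overlap of 50% (1.48), each at an exact permutation p of 0.0222. The mean difference from day 9 regions without ESC peaks no longer passed as midpoints per Mb (46.3) or in regions of 1000 to 2000 bp (10.8). The mean difference from ESC regions without day 9 peaks passed under every alternative run. Leaving out 1 library at a time gave 3296 to 4398 gained regions, slopes of 4.09 to 5.31 points per day, and differences in slope of 3.94 to 5.12 from ESC regions without day 9 peaks and 0.936 to 2.07 from day 9 regions without ESC peaks, with 1.99 and 2.07 (exact permutation p of 0.0222) without H3K27ac library EA-3702_1 or EA-3702_2 of day 9. The F ran from 2.27 to 12.5, the mean differences from 29.8 to 36.9 and from 17.6 to 23.7, and the day 6 difference from 5.12 to 10.6. The cause of these changes was not tested. No paired analysis was possible by replicate number because the groups share fewer than 2, all day 3 and day 6 KLF4 libraries being number 1. Batches are shared in part (EA-3702 at days 3, 6 and 9, DG-4040 at days 3 and 6), and a test blocked on batch, with labels permuted inside each, gave an exact p of 0.0417 for the slope. Unknown depth limits every share, since a shallow library lists fewer peaks.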
